A study of Rattus norvegicus with 29 samples.

Results

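Chromatin accessibility was examined in 3 windows of the rat genome (build rn6) that surround the dopamine receptor genes Drd1, Drd2 and Drd3. Open chromatin regions (OCRs, stretches of DNA that the transposase of the ATAC assay can enter) were taken as members where their row of the deposited count matrix overlapped chr17:11000000-11200000 (Drd1), chr8:53600000-53820000 (Drd2) or chr11:61520000-61740000 (Drd3). This gave 38 of 98237 OCRs, with 17 in the Drd1 window, 9 in the Drd2 window and 12 in the Drd3 window. Each OCR was named by its window and its order along the chromosome, so that Drd1_15 was number 15 of the Drd1 window. The names do not tie an OCR to a gene, since each window also reaches past the receptor gene, and no annotation of rn6 was used here.

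Dopamine receptors are G protein-coupled receptors of the neuron surface. Drd1 couples to stimulatory G proteins and raises cyclic AMP, whereas Drd2 and Drd3 couple to inhibitory G proteins and lower it. In the striatum, of which the nucleus accumbens is the ventral portion, Drd1 and Drd2 mark largely separate classes of medium spiny projection neurons, and Drd3 is best known from the nucleus accumbens. Methamphetamine (METH) releases dopamine from its terminals, and these receptors are what the released dopamine binds.

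ATAC-seq libraries came from adult male Sprague-Dawley rats that had received 4 intraperitoneal injections, 2 h apart, of METH at 10 mg/kg or of saline at 1 mL/kg. Tissue was taken a day after the last injection. Each of nucleus accumbens (NAc), Ammon's horn (CA) and dentate gyrus (DG) had 4 METH and 4 saline libraries, and the subventricular zone (SVZ) had 2 METH and 3 saline libraries, 29 in all. The library names carried 8 animal numbers, 4 per treatment. Each animal gave NAc, DG and CA libraries, and some also gave SVZ. The main fits did not pair libraries by animal. NAc and SVZ were punched from frozen slices of the anterior brain, and DG and CA were scooped from the posterior brain. Because each library held the nuclei of a whole piece of tissue, a smaller share of one cell type and a weaker signal per cell cannot be told apart.

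For orientation, the bases just before each receptor gene's annotated start are shown, taken from RefSeq on build GRCr8. Each line gives the 250 bases before the start, on the strand of the gene. Capitals mark a GC box (GGGCGG or its reverse complement CCGCCC), the only one of the searched motifs that was found.
Drd1 (chr17:10546354-10546603, plus strand): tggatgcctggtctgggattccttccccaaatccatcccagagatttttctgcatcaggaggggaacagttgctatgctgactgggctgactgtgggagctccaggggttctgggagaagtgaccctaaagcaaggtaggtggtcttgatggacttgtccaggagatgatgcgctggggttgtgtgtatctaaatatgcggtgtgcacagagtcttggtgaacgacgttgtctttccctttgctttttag
Drd2 (chr8:58605153-58605402, plus strand): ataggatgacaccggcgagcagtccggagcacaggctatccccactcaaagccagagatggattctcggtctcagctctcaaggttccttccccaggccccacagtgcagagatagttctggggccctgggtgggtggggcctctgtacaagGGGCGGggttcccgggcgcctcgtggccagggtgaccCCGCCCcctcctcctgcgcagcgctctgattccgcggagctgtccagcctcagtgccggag
Drd3 (chr11:70437794-70438043, minus strand): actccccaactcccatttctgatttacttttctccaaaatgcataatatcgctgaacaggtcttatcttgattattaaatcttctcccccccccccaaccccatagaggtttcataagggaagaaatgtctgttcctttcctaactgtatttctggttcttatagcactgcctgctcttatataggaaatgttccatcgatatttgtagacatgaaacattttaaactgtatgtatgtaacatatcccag
The stretch before Drd2 was rich in G and C (66%, with 14 CpG dinucleotides), that before Drd1 held 51.2% and 4, and that before Drd3 held 38% and 2. Over 33469 genes of the same table the medians were 51.2% and 5. GC boxes lay 98 and 61 bases before the Drd2 start, and 30.5% of all genes had at least 1 match in such a stretch. On both strands, no match was found for GCGTGGGCG or GCGGGGGCG (the Egr motif, present before 0.478% and 2.45% of genes), TGACGTCA (the cyclic AMP response element, 1.59%), TGACG alone (its first bases, 18.2%) or TGANTCA (AP-1, 6.34%). In GRCr8 the next genes beside the receptors were Sfxn1 and Msx2 for Drd1, Tmprss5 and Ankk1 for Drd2, and Qtrt2 and Tigit for Drd3. The OCRs have rn6 positions and could not be placed on these sequences.

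Library depth over the OCRs ran from 7550223 to 19439840 counts. Values below are counts per 1000000 OCR counts (CPM) after the library totals were scaled by upper-quartile factors of 0.815 to 1.12, and levels of different OCRs are compared only after division by OCR length (CPM per kb). Some METH libraries stood apart from their own group over OCRs outside the 3 windows. Over 4569 OCRs called higher in NAc saline tissue, the median level was 4.83, 5.72 and 7.46 CPM in NAc METH replicates 1, 2 and 4 but 1.48 CPM in replicate 3, near the 0.516 to 1.08 CPM of the DG and CA METH libraries. Over 152 OCRs called higher in DG saline tissue, the median was 6.54 and 7.29 CPM in DG METH replicates 2 and 3 but 1.29 and 1.53 CPM in replicates 1 and 4, in the range of the NAc and SVZ METH libraries (0.705 to 1.70 CPM). Among the SVZ saline libraries, replicate 3 was highest over the OCRs called higher in NAc, at 6.97 CPM against 2.95 and 3.22 CPM. The METH effects in NAc and DG that lean on these 3 METH libraries are given below also without them.

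**Figure D1:**
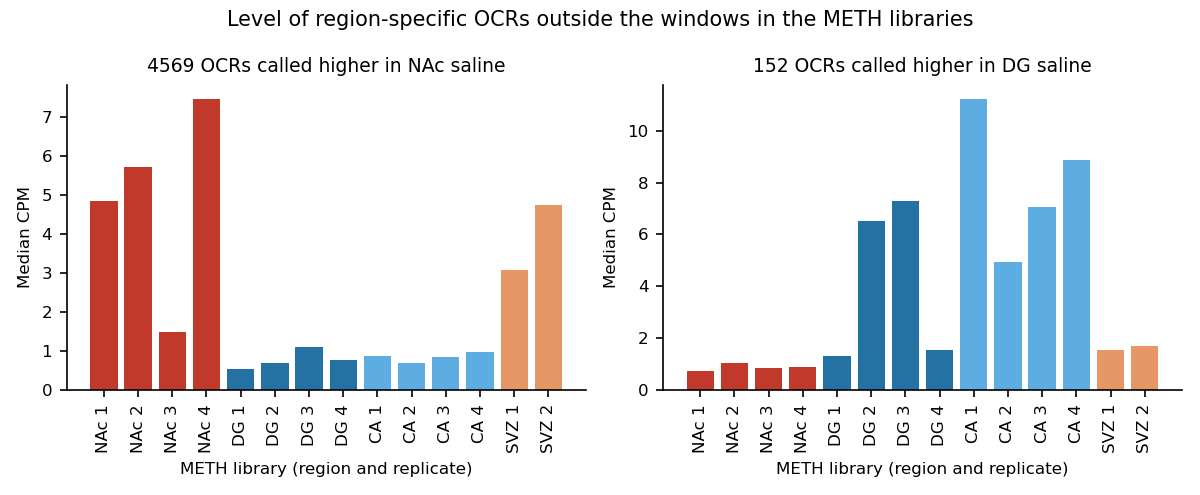
Median CPM of each METH library over OCRs that were called higher in NAc saline or in DG saline tissue and that lie outside the 3 windows; each bar is 1 library. NAc METH replicate 3 (1.48 CPM) and DG METH replicates 1 and 4 (1.29 and 1.53 CPM) sit below the other METH libraries of their region.

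The OCRs of each window spanned a wide range of accessibility. Over all 29 libraries the median level of an OCR was 6.94 CPM per kb in the Drd1 window, 4.88 in the Drd2 window and 7.08 in the Drd3 window. The most accessible OCR of the 3 windows was Drd3_2 (chr11:61530306-61531858, 1553 bp), at a mean of 66.9 CPM per kb. Its level ran from 68.7 through a median of 99.8 to 149 CPM over the 29 libraries, and the regions overlapped throughout. It lies far from Drd3_11, which is described below and was called higher in NAc, toward the other end of the window. Drd2_9 (chr8:53817231-53818107) and Drd2_1 (chr8:53624067-53624718) had 25.6 and 19.0 CPM per kb and lie at opposite ends of the Drd2 window. In the Drd1 window the highest mean was that of Drd1_9 (chr17:11081380-11082419), at 12.2 CPM per kb.

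These leading OCRs were open in each region. Drd2_9 measured 17.8, 23.6, 18.2 and 21.7 CPM in NAc saline and 34.9, 21.7, 15.6 and 16.6 CPM in DG saline. Drd1_9 measured 12.4, 16.6, 18.0 and 15.2 CPM in NAc saline against 8.38, 6.24, 11.9 and 12.5 CPM in CA saline. The NAc and CA values of Drd1_9 overlapped only between the lowest NAc and the highest CA library. Drd3_4 (chr11:61545559-61546608) was highest in DG, with 13.3, 15.4, 11.3 and 16.3 CPM in DG saline and 6.23, 6.11, 5.39 and 5.55 CPM in NAc saline, with no overlap. Drd3_9 (chr11:61709077-61710401), also among the most accessible of its window, measured 9.54, 15.4, 17.7 and 20.7 CPM in NAc saline and 13.1, 13.0, 11.3 and 18.5 CPM in DG saline, and the groups overlapped. Drd2_8 (chr8:53774942-53775689) measured 3.70, 2.55, 2.52 and 2.235 CPM in NAc saline and 1.715, 5.30, 3.09 and 2.86 CPM in DG saline, with the NAc values inside the DG range. Drd1_5 measured 7.01, 8.86, 10.7 and 11.48 CPM in NAc saline, against 12.8, 14.7, 10.0 and 15.3 CPM in DG saline, and the lowest DG library lay within the NAc range.

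**Figure D2:**
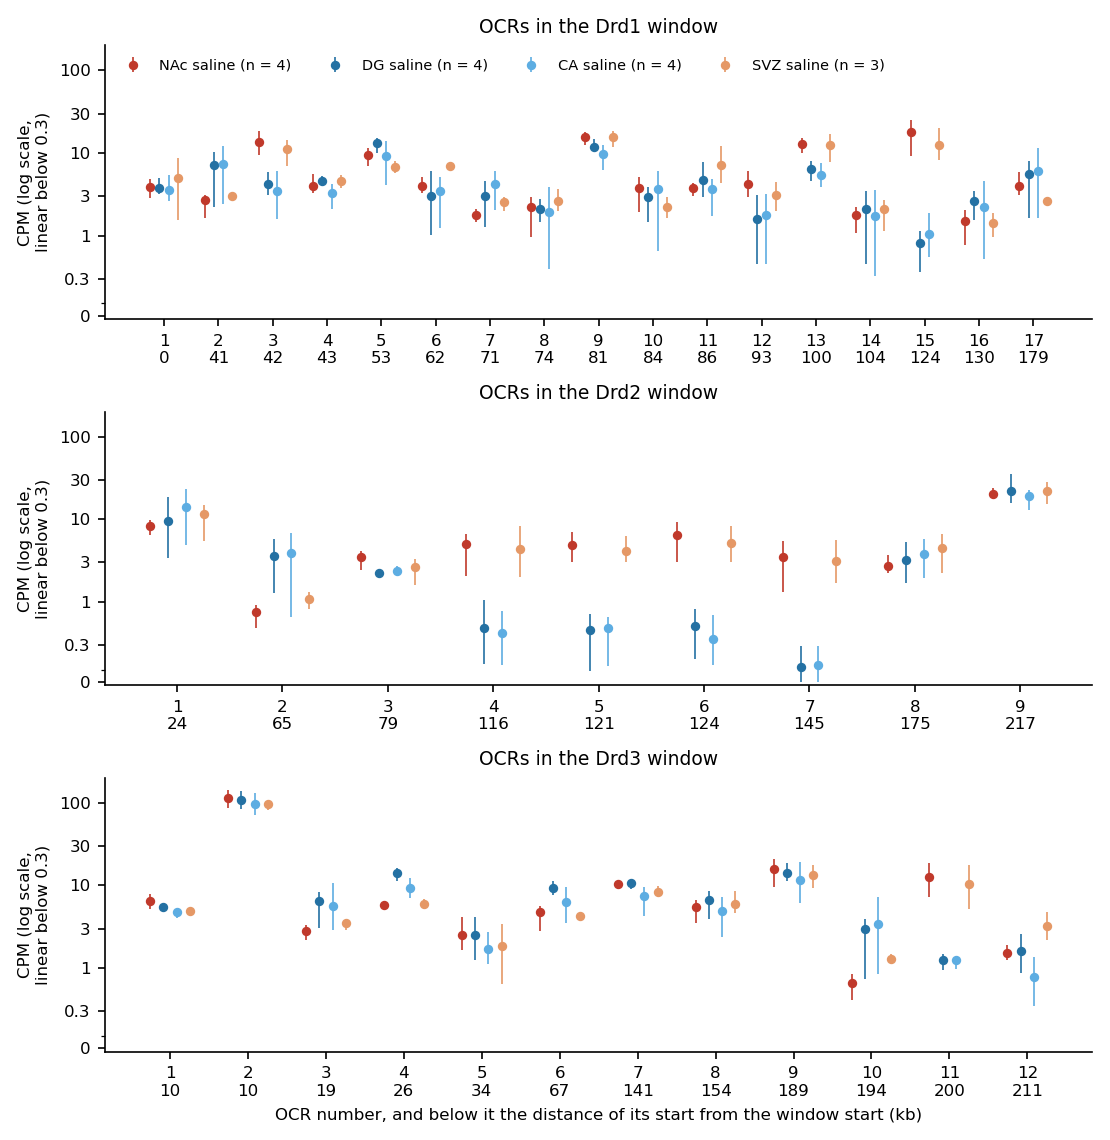
Level of each of the 38 OCRs in saline tissue of the 4 regions, in CPM on an axis that is linear below 0.3 and logarithmic above; dots are group means and bars run from the lowest to the highest library. At 4 neighbouring OCRs of the Drd2 window, at Drd1_3 and Drd1_15 and at Drd3_11 the NAc and SVZ means lie above those of DG and CA.

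The first question was whether accessibility at the receptor loci differed among the 4 regions in saline rats. With the study's thresholds for a region-specific OCR (log2 fold change above 1 over the mean of the 3 other regions and a false discovery rate, FDR, under 0.01), 7 of the 38 OCRs (18.4%) were called higher in NAc, against 4.66% of all OCRs. They were 4 of 9 in the Drd2 window, 2 of 17 in the Drd1 window and 1 of 12 in the Drd3 window. The median log2 fold change was 0.51, -0.04 and 0.07 in these windows and -0.07 over all OCRs, so that the difference was held by a few OCRs and not by the windows as wholes. In the 500 kb on either side of the windows, 2 of 64 OCRs around Drd2, 5 of 84 around Drd1 and 6 of 65 around Drd3 were called. The fit used edgeR's quasi-likelihood test over all 98237 OCRs and the 15 saline libraries.

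The 4 called OCRs of the Drd2 window were neighbours, Drd2_4 to Drd2_7, within 29.3 kb of chr8:53715825-53745088. Drd2_6 (chr8:53723642-53724217) measured 7.21, 3.06, 6.61 and 9.17 CPM in NAc saline and 4.22, 3.04 and 8.27 CPM in SVZ saline. Over the 16 DG and CA libraries of both treatments it ran from 0 through a median of 0.450 to 1.14 CPM, below each of these 7 libraries. The NAc mean was 12.8 times the DG mean and 18.1 times the CA mean (log2 fold change over the 3 other regions 2.70, SE 0.37, FDR 0.00017).

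Drd2_7 (chr8:53744736-53745088), the shortest of the 4, measured 5.45, 1.32, 3.68 and 3.47 CPM in NAc saline. It ran from 0 through 0.158 to 0.476 CPM over the DG and CA libraries. In 4 of these libraries no read was counted, which allows up to 3 counts, or 0.208 to 0.295 CPM by library, for counting error only. The groups did not overlap, and the NAc mean was 27.9 times the DG mean (log2 fold change 3.16, SE 0.58, FDR 0.0016). Drd2_4 (chr8:53715825-53716419) and Drd2_5 (chr8:53720784-53721248) had log2 fold changes of 2.36 (SE 0.46, FDR 0.0025) and 2.31 (SE 0.38, FDR 0.00072). Their NAc saline means were 4.998 ± 2.05 and 4.84 ± 1.81 CPM (SD, n = 4), and none of the 16 DG and CA libraries passed 1.05 and 1.38 CPM. The OCRs on both sides of this group, Drd2_3 and Drd2_8, were not called and had NAc saline means of 3.45 ± 0.80 and 2.75 ± 0.65 CPM and DG saline means of 2.24 ± 0.22 and 3.24 ± 1.498 CPM (SD, n = 4).

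In the Drd1 window the called OCRs were Drd1_3 and Drd1_15. Drd1_15 (chr17:11124387-11125270) measured 15.2, 9.27, 22.8 and 25.1 CPM in NAc saline, 9.60, 8.25 and 19.9 CPM in SVZ saline, and 0.366 to 1.89 CPM (median 0.838) over the 16 DG and CA libraries. Each NAc and SVZ saline library was several times above the highest DG or CA library. The NAc mean was 22.2 times the DG mean (log2 fold change over the 3 other regions 3.04, SE 0.31, FDR 4.1e-05). Drd1_3 (chr17:11041794-11042466) showed the smallest of the 7 differences, with 13.3, 9.58, 18.3 and 13.6 CPM in NAc saline and a median of 3.55 CPM over the DG and CA libraries (log2 fold change 1.33, SE 0.28, FDR 0.0049). The OCRs immediately beside it, Drd1_2 and Drd1_4, lie 520 and 323 bp away and were not called. Drd1_2 showed the opposite order, with means of 2.71 ± 0.73 CPM in NAc saline and 7.14 ± 3.49 CPM in DG saline (SD, n = 4).

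In the Drd3 window the called OCR was Drd3_11 (chr11:61720260-61721166). It measured 14.1, 7.23, 10.98 and 18.8 CPM in NAc saline and 5.17, 8.52 and 17.5 CPM in SVZ saline. The DG and CA libraries ran from 0.258 through 1.24 to 2.46 CPM and did not reach any of them. The log2 fold change was 2.33 (SE 0.28, FDR 7.1e-05), and the NAc mean was 10.1 times the DG mean.

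**Figure D3:**
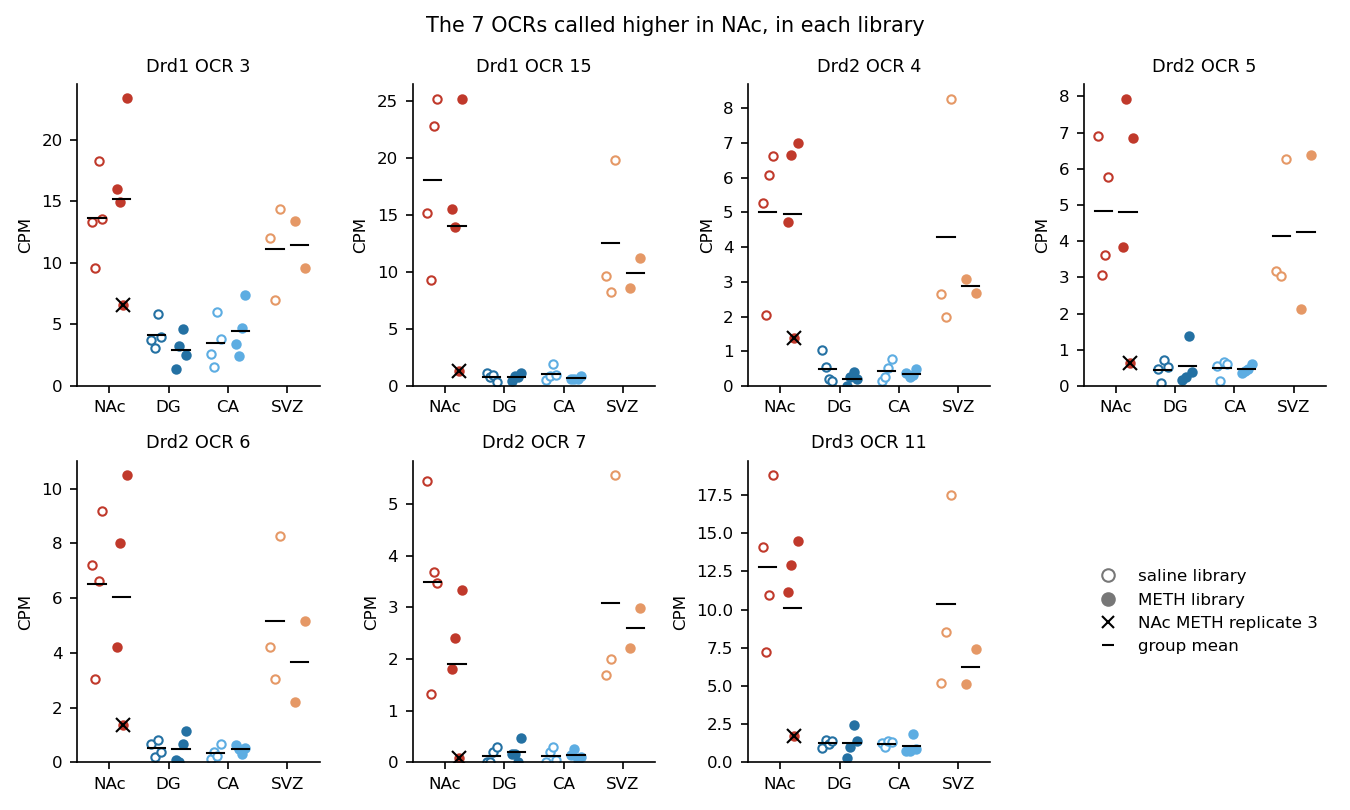
CPM of the 7 OCRs called higher in NAc saline tissue, 1 panel per OCR, by region; open circles are saline and filled circles METH libraries, lines are group means and the cross is NAc METH replicate 3. That library is the lowest of the 8 NAc libraries in each panel, and the other NAc and SVZ libraries lie above most or all DG and CA libraries.

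The METH libraries were not used in these calls and gave a second set of values from other animals. At the 7 OCRs, NAc METH replicate 3 was the lowest of the 8 NAc libraries each time. Summed over the 7 OCRs, the level was 57.3, 66.8 and 90.7 CPM in NAc METH replicates 1, 2 and 4 and 13.1 CPM in replicate 3, while the DG and CA libraries of both treatments ran from 2.495 to 10.97 CPM. With METH in place of saline libraries, 4 of the 7 were called (Drd1_15, Drd2_4, Drd2_6 and Drd3_11), against 2138 of all 98237 OCRs. The 7 were picked by their saline calls, so the share over all OCRs is not the share that would repeat. How many of the 4576 OCRs called higher in NAc saline were called again was not counted. Without NAc METH replicate 3 and DG METH replicates 1 and 4, all 7 were called, together with Drd1_13 (log2 fold changes 1.62 to 3.35 at the 7). This fit called 6022 of all 98237 OCRs, a count with the same limit. These libraries were left out because they were low over OCRs called higher in their own region, so that this fit is not an independent check.

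Leaving out single saline libraries kept 5 to 7 of the 7 calls. Drd1_3 and Drd2_7 were lost without NAc saline replicate 1, Drd1_3 and Drd2_4 without NAc saline replicate 3 or 4, and Drd1_3 without SVZ saline replicate 1 or 2. At all 7 OCRs each NAc saline library was above each DG and CA saline library. The order therefore also held within each of the 2 spellings of the library names' prefix, which is no separate check.

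Pairwise tests located the difference between the anterior and the posterior tissues. Between NAc and DG, 8 OCRs were called (21.1%) against 6.23% of all OCRs: the 7 were higher in NAc, and Drd3_4 was lower (log2 fold change -1.28, SE 0.25, FDR 0.0027). Between NAc and CA, 8 were called, all higher in NAc, against 7.04% of all OCRs; they were the 7 and Drd1_13 (chr17:11099646-11100646). Drd1_13 measured 10.1, 11.7, 15.3 and 14.5 CPM in NAc saline and 4.50, 3.87, 7.48 and 5.83 CPM in CA saline (log2 fold change 1.25, SE 0.30, FDR 0.0077). Each NAc saline library was above each DG and CA saline library at these 8 OCRs (background 8.86%) and below each of them at Drd3_4 alone (background 2.88%).

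Between NAc and SVZ no OCR was called among the 38, nor in the whole table (0%), with edgeR, DESeq2 or edgeR's likelihood ratio test, and 1 of the 38 had an unadjusted p under 0.05, against 3.81% of all OCRs. At the 7 OCRs the log2 fold change of NAc over SVZ was 0.19 to 0.53. Between DG and CA there were likewise no calls (0% of all OCRs) by any of the 3 tests, and 1 of the 38 had an unadjusted p under 0.05, against 0.893% of all OCRs.

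SVZ also stood above both hippocampal regions. Against DG, 5 OCRs were called higher in SVZ (2.03% of all OCRs were called), and against CA 6 were (2.69%), all among the 7. Against the mean of the 3 other regions, 3 OCRs were called higher in SVZ against 0.399% of all OCRs: Drd1_15 (log2 fold change 2.33, SE 0.34, FDR 0.0037), Drd2_6 (2.25, SE 0.40, FDR 0.0087) and Drd3_11 (1.93, SE 0.30, FDR 0.0051). None of the 3 was called without SVZ saline replicate 3, the highest of the 5 SVZ libraries at 6 of the 7 OCRs, or with the animal as a block (FDR 0.0178, 0.0266 and 0.0178). For DG and for CA no member OCR was called over the 3 other regions, against 0.155% and 0.0814% of all OCRs. DESeq2 also called none, and 15 and 14 of the 38 OCRs had an unadjusted p under 0.05 in either direction, against 17.8% and 19.8% of all OCRs. Drd3_4 came nearest in DG: it was called there with the likelihood ratio test and with the replicate number as a block.

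Peaks called by the authors in each library separately gave a second view of the same reads. The counts that follow have no share over all OCRs beside them and are a description only. At 7 OCRs no peak was called in any of the 16 DG and CA libraries: Drd1_15, Drd2_4, Drd2_5, Drd2_6, Drd2_7, Drd3_11 and Drd3_12. At 4 of them (Drd1_15, Drd2_5, Drd2_6 and Drd3_11) each of the 4 NAc saline libraries had a peak. Drd1_15 had one in 7 of the 8 NAc libraries and in all 5 SVZ libraries, at 6.58- to 15.01-fold enrichment, and the NAc library without one was METH replicate 3. At Drd2_6 peaks reached 3.64- to 6.30-fold enrichment in 7 NAc and 3 SVZ libraries.

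Other OCRs showed the reverse order in peak calls, though none of them was called lower in NAc than in DG or CA by counts. At Drd1_2, Drd1_7, Drd1_14, Drd1_16, Drd2_2, Drd3_3 and Drd3_10 peaks were called in DG or CA libraries and in no NAc or SVZ library. Drd1_2 was the most frequent of these, with peaks in 5 of 8 DG and 7 of 8 CA libraries. Peaks in all 29 libraries were found at Drd1_9, Drd2_1, Drd2_9 and Drd3_2, which are also the leading OCRs by level. Fewer reads make a peak harder to call, so that a missing peak does not show closed chromatin. The shares of all OCRs with these peak patterns were not computed.

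**Figure D4:**
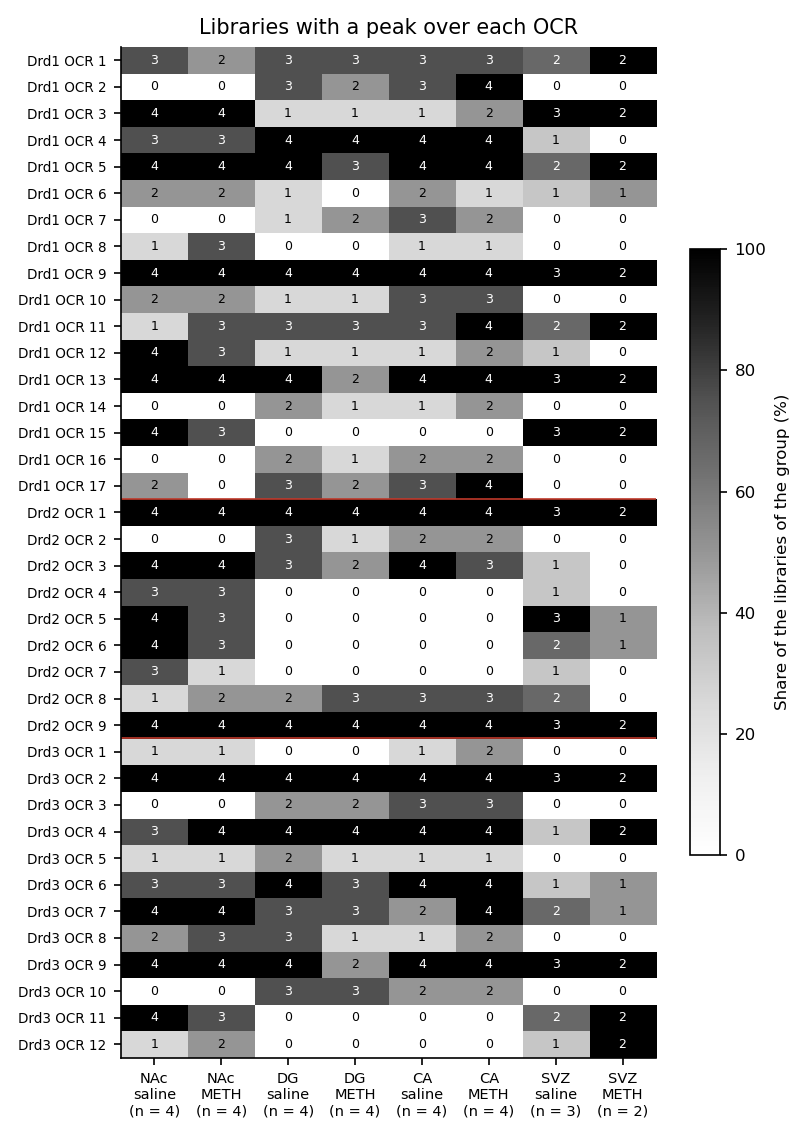
Number of libraries with a called peak over each of the 38 OCRs, by region and treatment; the number is printed in each cell, and darker grey stands for a larger share of the group's libraries. Drd2_4 to Drd2_7, Drd1_15, Drd3_11 and Drd3_12 have no peak in DG or CA.

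The second question was whether METH altered accessibility at the receptor loci. With the study's thresholds for a differentially accessible region (fold change above 1.5 in either direction, FDR under 0.001), none of the 38 OCRs was called in NAc, DG, CA or SVZ with edgeR's quasi-likelihood test over the 29 libraries. The background was 0% of all OCRs in each region, and this fit left out the study's removal of unwanted variation (RUVr). DESeq2 and edgeR's likelihood ratio test also called none of the 38. The test of a METH effect that differs among the regions called none, against 0% of all OCRs. Unadjusted p values under 0.05 were found for 1 OCR in NAc (background 2.45%), 5 in DG (9.84%), none in CA (0.820%), 1 in SVZ (3.47%) and 2 for the difference among regions (2.10%). After RUVr, the paper reports many differentially accessible regions. It also reports a significant loss of signal in NAc at some OCRs around Drd1 and Drd2, along with lower expression of both genes. Its figure legend marks these OCRs by p value, which is not the threshold on fold change and FDR used here. The main fit called no METH effect in the whole table, so its result cannot be set against that report. With 5 RUVr factors, 14 OCRs of the whole table were called in NAc, none of them among the 38. How many factors the study used was not stated, so its settings could not be repeated.

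**Figure D5:**
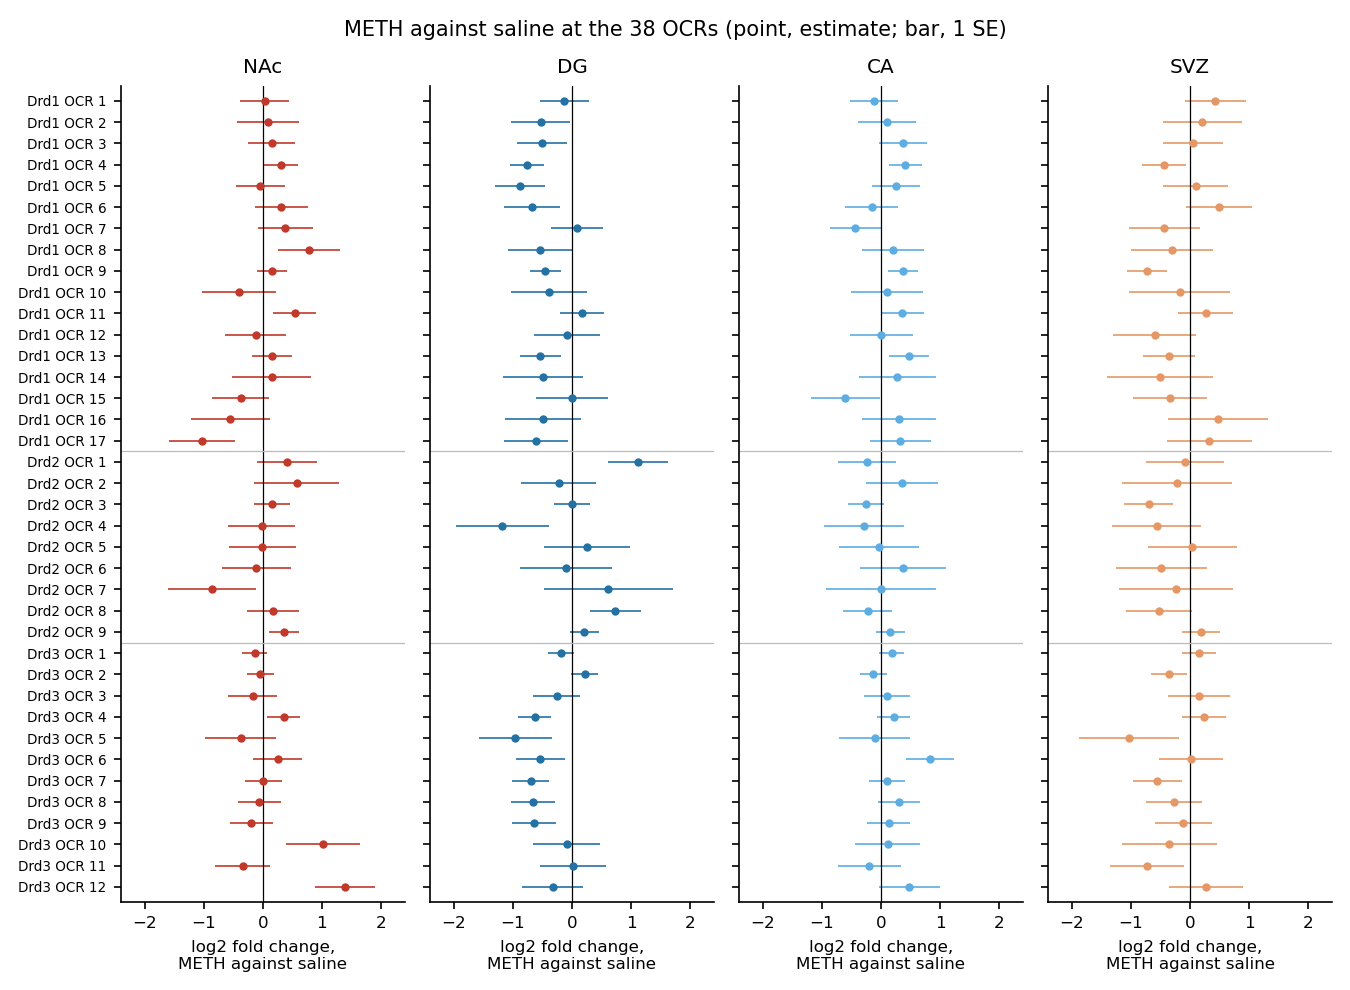
Log2 fold change of METH over saline for the 38 OCRs in each region, with bars of 1 SE, from the fit over 29 libraries. No OCR passed the thresholds, and in DG most OCRs of the Drd1 and Drd3 windows lie below 0 (39.9% of all OCRs were above 0 in DG).

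In NAc the median log2 fold change was 0.15 in the Drd1 window, 0.15 in the Drd2 window and -0.05 in the Drd3 window, and -0.01 over all OCRs. Without METH replicate 3 these medians were 0.0085, 0.29 and 0.00032, and that over all OCRs was -0.04. The lowest p of each window belonged to Drd1_17, Drd2_9 and Drd3_12. Drd3_12 (chr11:61730738-61731269) measured 2.32, 3.05, 8.86 and 1.79 CPM in NAc METH and 1.27, 1.43, 1.91 and 1.46 CPM in NAc saline. METH replicate 3 was far above the rest, and the groups overlapped. The log2 fold change was 1.39 (SE 0.50, unadjusted p = 0.0101, FDR 1.0 with edgeR) and 0.64 without that library.

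Drd1_17 (chr17:11179017-11179963) measured 1.01, 1.94, 1.85 and 3.03 CPM in NAc METH and 3.12, 3.67, 5.93 and 3.39 CPM in NAc saline. It was the 1 OCR of the 38 whose METH libraries all lay below the saline libraries (background 1.91%), and no OCR had the opposite order (background 1.04%). Its log2 fold change was -1.03 (SE 0.56, FDR 1.0), and METH replicate 3 stood within the METH group. Drd2_9 measured 32.8, 27.0, 28.0 and 16.7 CPM in NAc METH, both above and below the saline values given above (log2 fold change 0.36, SE 0.25, FDR 1.0).

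At the 7 OCRs called higher in NAc saline tissue the METH and saline values of NAc overlapped. The SVZ saline means of these OCRs also lay above those of DG and CA. The log2 fold changes ran from -0.86 (Drd2_7, SE 0.74) to 0.15 (Drd1_3, SE 0.40). Because these OCRs were picked for high values in the same NAc saline libraries, their METH estimates can be biased downward. Without NAc METH replicate 3 and the DG libraries that stood apart, Drd2_7 was at -0.46 (SE 0.68) and Drd1_3 at 0.40 (SE 0.37). Drd1_15 and Drd3_11 were then at 0.01 each, and Drd2_4, Drd2_5 and Drd2_6 at 0.29, 0.36 and 0.22. At Drd2_6 the METH libraries measured 4.23, 8.03, 1.38 and 10.5 CPM, and at Drd1_15 15.5, 13.9, 1.29 and 25.2 CPM, with replicate 3 the third value of each.

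In DG the OCRs of the Drd1 and Drd3 windows were mostly lower after METH, but not beyond the spread. The median log2 fold change was -0.49, 0.21 and -0.43 in the Drd1, Drd2 and Drd3 windows, against -0.15 over all OCRs. Of the values, 14 of 17, 3 of 9 and 10 of 12 were negative, while 39.9% of all OCRs had a positive value. In the 500 kb on either side of the windows the medians were -0.41, 0.09 and -0.11. Without NAc METH replicate 3 and DG METH replicates 1 and 4 the medians of the windows were 0.05, -0.15 and -0.07, and that over all OCRs was 0.00016. The OCRs with an unadjusted p under 0.05 in DG then numbered 1254 in the whole table, down from 9671. That fit kept only DG METH replicates 2 and 3, which also lowers power. Without DG METH replicate 1, 2, 3 or 4 alone the number was 3413, 10181, 30650 and 3533. Without replicate 3 the medians were -0.86, 0.08 and -0.75, against -0.30 over all OCRs. With DESeq2 the DG medians were -0.38, 0.38 and -0.30 against -0.01 over all OCRs.

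The DG values of single OCRs followed the same libraries. Drd1_5 (chr17:11052678-11053618) measured 1.98, 9.03, 14.5 and 3.34 CPM in DG METH and 12.8, 14.7, 10.0 and 15.3 CPM in DG saline, with METH replicates 1 and 4 lowest (log2 fold change -0.88, SE 0.42, FDR 0.493). Drd3_4 showed the same order, with 5.34, 12.1, 13.7 and 5.43 CPM in DG METH (log2 fold change -0.63, SE 0.28, FDR 0.493). Drd2_1 was high in these 2 libraries, at 27.7, 16.6, 6.40 and 32.8 CPM in DG METH against 3.43, 18.4, 6.80 and 9.81 CPM in DG saline (log2 fold change 1.12, SE 0.51, FDR 0.493). Without DG METH replicates 1 and 4 and NAc METH replicate 3, the log2 fold changes were -0.17 (SE 0.39) at Drd1_5, -0.13 (SE 0.27) at Drd3_4 and 0.26 (SE 0.59) at Drd2_1. With 5 factors of unwanted variation (RUVr) as covariates, Drd1_5 (log2 fold change -1.09, SE 0.21, FDR 0.00021) and Drd2_1 (1.04, SE 0.18, FDR 5.5e-05) passed the thresholds in DG. The same fit called 4.56% of all OCRs in DG, near the share of 2 in 38. It was not run without DG METH replicates 1 and 4. No other member was called between METH and saline in any region under the alternatives run.

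Drd1_4 (chr17:11042790-11043174) was the 1 OCR whose DG METH libraries, at 1.98, 2.41, 3.54 and 3.05 CPM, all lay below the DG saline libraries, at 5.24, 4.02, 5.15 and 4.18 CPM (background 2.01%). Its log2 fold change was -0.76 (SE 0.29, unadjusted p = 0.0132, FDR 0.493 with edgeR) and -0.64 (SE 0.34) without the 3 libraries that stood apart. No OCR had the opposite order in DG (background 0.524%).

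In CA the medians were 0.25, -0.04 and 0.12 against 0.02 over all OCRs. Without CA saline replicate 2 they were -0.06, 0.05 and -0.02 against 0.0061, so that each sign turned. Over 80 OCRs called higher in CA saline tissue, that library had a median of 2.69 CPM. CA saline replicates 1, 3 and 4 had 5.47, 11.3 and 9.78 CPM there. No OCR had METH and saline libraries apart in either direction, against backgrounds of 0.484% for METH higher and 0.363% for METH lower. Drd1_13 measured 8.502, 4.14, 8.66 and 8.72 CPM in CA METH, overlapping the saline values.

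In SVZ the medians were -0.18, -0.24 and -0.19 against -0.01 over all OCRs. With 2 METH and 3 saline libraries the groups were apart at 3 OCRs with METH higher (Drd1_6, Drd1_17 and Drd3_1, background 10.6%) and at 4 with METH lower (Drd1_4, Drd1_9, Drd3_2 and Drd3_10, background 9.62%). Drd1_9 had the lowest p there, with 8.09 and 10.6 CPM in METH and 18.6, 16.0 and 11.9 CPM in saline tissue (log2 fold change -0.73, SE 0.34, unadjusted p = 0.0424, FDR 1.0 with edgeR). Drd3_2, the most accessible OCR, measured 76.1 and 73.3 CPM in SVZ METH and 109, 96.1 and 82.2 CPM in SVZ saline (log2 fold change -0.36, SE 0.30, FDR 1.0).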

How the data were processed

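Per the labels and the study's methods, 29 omni-ATAC libraries of frozen rat tissue were processed by the authors with the AIAP pipeline on rn6, and OCRs called per library were merged with bedtools (no version stated). The authors deposited 1 matrix of raw read counts per merged OCR and, per library, a narrowPeak list with the peak's fold enrichment and its −log10 q-value. Peaks were thus called per library and not on pooled samples. Per the deposited headers each column of the matrix was mapped to 1 sample, and 0 columns were left unmapped.

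Counts were fitted over all 98237 OCRs with edgeR 4.0.16 in R 4.3.3 (upper-quartile normalization, trended dispersion, robust quasi-likelihood F test, Benjamini-Hochberg FDR). METH contrasts used 29 libraries in 8 groups, and region contrasts the 15 saline libraries. No OCR was lost to the filter on low counts. CPM used the sum of each library's OCR counts times its upper-quartile factor. An OCR counted as carrying a peak where at least 1 bp overlapped. The self-test on simulated counts was run first.

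The study removed unwanted variation with RUVr. How many factors were used was not stated, so fits with 2 and 5 factors were alternatives, as were TMM, DESeq2 1.42.0, other filters, blocks, the library-name prefix and leaving out each library. Values in the single libraries of the groups compared, or their range, are given for the 3 OCRs of each window with the highest mean CPM and the OCR with the lowest p for METH in NAc. The 7 OCRs called higher in NAc and others given in full were chosen after their values were seen. Members, lists and tests were chosen with earlier results of these data known.

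Same-numbered libraries of a treatment carried the same animal number in NAc, DG and CA. Deviations from the group means of the same animal in different regions correlated from -0.43 to 0.66 (median 0.08, 39 pairs). A replicate number shared by METH and saline libraries names different animals. The peak files' names spell their prefix in 2 ways, of unstated meaning. OCRs near other genes of dopamine signalling were not analysed here, since no rn6 annotation was used. Genome positions are 1-based. Counting intervals cover counting error only.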

Additional observations from a re-analysis of the deposited data

Results flagged for a closer look

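Among 126 groups of 4 libraries, 3 held a library whose gap to the nearest other library, as a share of the group's range, was above Dixon's critical value, and chance flags about 1 group in 20. Drd1_9 in DG saline measured 14.8 CPM in replicate 1 against 10.9, 10.7 and 11.3 CPM. Drd1_13 in CA METH measured 4.14 CPM in replicate 2 against 8.502, 8.66 and 8.72 CPM. Drd3_11 in CA METH measured 1.85 CPM in replicate 3 against 0.721, 0.760 and 0.905 CPM, and it was still below each NAc and SVZ library except NAc METH replicate 3. None of the 3 was a library that stood apart over the region-specific OCRs. At Drd1_17 each METH library lay above each saline library in SVZ (log2 fold change 0.32) and below each of them in NAc (-1.03). The difference between these 2 regions alone was not tested.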

How the results depend on the processing

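The count of OCRs called between METH and saline stayed at 0 in NAc, CA and SVZ and for the difference among regions under every alternative run, and in DG under every one but 5 RUVr factors (2, where 4482 of all 98237 OCRs were called). Leaving out each library in turn gave 0 to 0 for these. The number called higher in NAc was 4 with METH libraries and 6 with TMM (Drd1_3 lost), against 2138 and 3710 of all OCRs. It was 5 to 7 without single libraries. The number called higher in DG was 1 with the likelihood ratio test (2011 of all OCRs) and 1 with the replicate block (278). It was 0 to 1 without single libraries. The number called higher in SVZ was 1 with TMM, 6 with the likelihood ratio test and 5 with DESeq2. Over all OCRs these fits called 84, 2367 and 1507. The number was 0 with METH libraries (1035 of all OCRs), 0 with the animal block (16) and 0 to 3 without single libraries. Without single libraries NAc against DG gave 5 to 9 calls (5 without NAc saline replicate 3 or 4 or DG saline replicate 4), SVZ against DG 1 to 7 (1 without SVZ saline replicate 3) and SVZ against CA 2 to 6 (2 without that library). SVZ against DG gave 8 with the likelihood ratio test and 8 with DESeq2, against 6343 and 6630 of all OCRs. With METH libraries it gave 0 (501 of all OCRs), and 1 (494) when the 3 that stood apart were left out. SVZ against CA gave 1 with METH libraries, against 1360 of all OCRs. The cause of these changes was not tested.

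With 0.5 of the OCR's length required to overlap, 1 OCR instead of 4 had a peak in every NAc saline library and none in DG or CA, and 2 instead of 4 had one in all 29 libraries. The direction of NAc METH effects, none of them called, turned as follows. Drd2_4 was at 0.07545 with the replicate block, 0.040 with the name prefix as a covariate, 0.64 within the first spelling and 0.29 without the 3 libraries that stood apart. Drd2_5 was at 0.034, 0.032, 0.24 and 0.36 in the same order, 0.017 with TMM and 0.023 with DESeq2. Within the first spelling and without the 3 libraries, Drd2_6 was at 0.26 and 0.22, Drd1_15 at 0.27 and 0.0084, and Drd3_11 at 0.17 and 0.007219. Drd1_3 was at -0.0853 within the second spelling. Without single libraries these ranged from -0.28 to 0.29 (Drd2_4), -0.35 to 0.36 (Drd2_5), -0.52 to 0.22 (Drd2_6), -0.82 to 0.0085 (Drd1_15), -0.57 to 0.0073 (Drd3_11) and -0.13 to 0.40 (Drd1_3). The replicate block changed no other call.

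Depth limits the low OCRs most: Drd2_7 rested on 0 to 5 counts in each DG and CA library. SVZ had 2 METH libraries, and leaving out either left 1, assumed to vary like the other groups. Without the OCR sequences of rn6, no motif or gene position could be given for an OCR.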

Other observations

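Each window was compared only with OCRs on other chromosomes, a rule set beforehand. Of these, the OCRs whose CPM varied most like the summed level of the window across the 29 libraries are given. For the Drd1 window they were chr7:145139318-145140770 and chr3:82962109-82962836 (Pearson r 0.961 and 0.958, log scale). For the Drd2 window r was 0.871 at chr2:38899846-38901145 and 0.848 at chr5:140651430-140652339. For the Drd3 window it was 0.908 at chr2:33840756-33841916 and 0.908 at chr7:14302100-14303754. The median r over all compared OCRs was 0.09, 0.02 and -0.01. The libraries share tissue, animals and depth, so that these values are a description, with no test.

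Some peaks of single libraries lay in the windows but over none of the 38 OCRs. Their number was highest in CA METH tissue in the Drd3 window, at up to 7 in a library, and in CA saline tissue in the Drd2 window, at up to 6. The summed level of the Drd1 window was 107 ± 20.1 CPM in NAc saline and 110 ± 21.9 CPM in NAc METH tissue (SD, n = 4).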
